A study of Mus musculus with 6 samples.

Results

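The cortex holds a minority of inhibitory neurons that release GABA and fall into classes named after marker genes. This account covers 10 such genes in mouse cortex with and without Syn-Cre deletion of Rheb, a small GTPase that activates the growth-controlling kinase complex mTORC1. They are Gad1, Gad2 and Slc32a1, which make and package GABA, and Lhx6, Pvalb, Calb1, Calb2, Htr3a, Reln and Lamp5, which mark classes of interneurons. They were taken by gene symbol from the longer of the deposited gene tables, where all 10 were found once each among 13192 tested genes.

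The 3 Rheb conditional knockout (Rheb cKO) libraries came from mice with floxed Rheb on both alleles (floxp/floxp), the Ribo-HA k/+ knock-in and Syn-Cre, the usual short name of a Cre driven by the synapsin promoter of neurons. The 3 Control libraries came from mice with the same floxed Rheb and Ribo-HA k/+ alleles, and their titles name no Cre. All were from cortex at postnatal day 25, and RNA was recovered from lysate by precipitating HA-tagged ribosomes, so the values describe mRNA in that precipitate. Whether the tag is present in ribosomes without Cre, which interneurons recombined, and whether each library is 1 animal are not stated in the labels. The authors pooled the libraries of a group to 1 FPKM value per gene (fragments scaled to gene length and library size), so the spread between libraries and their depth are unknown and no SD is given. Calls below are the authors' Cuffdiff q-values, adjusted over all tested genes, at a q under 0.05. Should the libraries share animals, the q-values cover only technical spread.

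Rheb was at 9.20 FPKM in Rheb cKO and 22.7 FPKM in Control (log2 fold change -1.30, q = 0.00161, Cuffdiff, the authors' deposited table). The labels call the cells neurons, but the precipitates also held transcripts of other cells. Pan-neuronal markers summed to 5604 FPKM in Rheb cKO and 5566 FPKM in Control over 15 genes. Oligodendrocyte markers summed to 1330 FPKM in Rheb cKO and 3833 FPKM in Control over 12 genes, all 12 of which fell. FPKM is a share of each precipitate, so levels below move with its make-up; the part of this difference in the results for the 10 genes was not tested.

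GABA is made from glutamate by the enzymes GAD67 (Gad1) and GAD65 (Gad2) and is loaded into synaptic vesicles by the transporter VGAT (Slc32a1), so these genes are used by nearly all cortical interneurons. Interneurons born in the medial ganglionic eminence depend on the transcription factor Lhx6 and mature into Pvalb and Sst cells. Those born in the caudal ganglionic eminence carry the serotonin receptor Htr3a and include Vip cells and most Lamp5 cells. Reln, Calb1 and Calb2 each mark several of these classes in part, and Calb1 is also made by some excitatory and striatal neurons.

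Of the 10 genes, 3 rose in Rheb cKO, Reln, Htr3a and Lhx6, and 1 fell, Pvalb, while the other 6 were not called. Over all 13192 tested genes 8.72% were called, 4.14% higher and 4.58% lower. The median log2 fold change of the 10 was 0.09, against 0.03 over the 13175 genes with a finite fold, and the single values ran from -0.94 to 1.01. At a q under 0.01 there were 3 of the 10 called, beside 4.71% of all genes. At an unadjusted p under 0.05 there were 5, beside 21.2% of all genes. Adjusted again over the 12029 genes whose FPKM averaged at least 1, 4 were called, beside 9.06%.

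**Figure D1:**
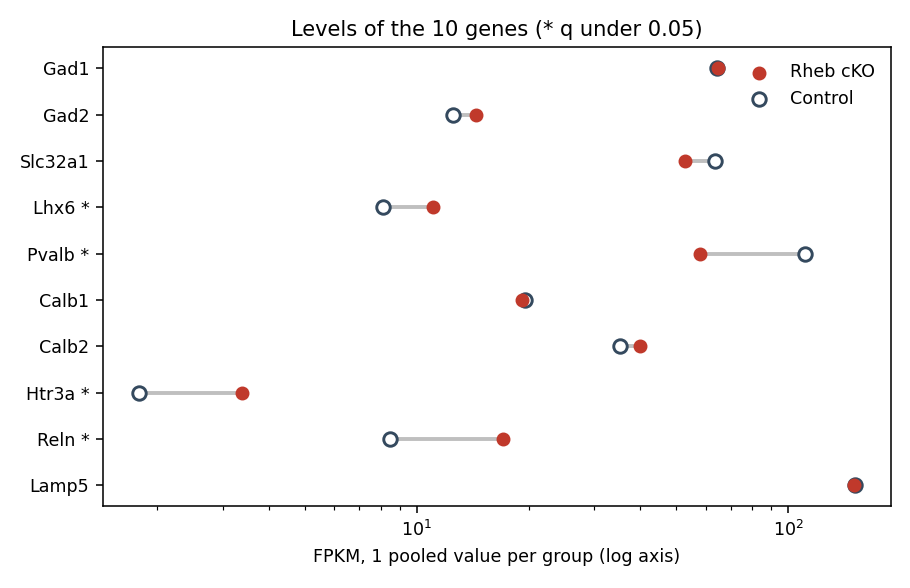
Level of each of the 10 genes in FPKM on a log axis, with the Rheb cKO value filled and the Control value open, 1 pooled value per group and no error bar since libraries were pooled; an asterisk marks a q under 0.05. Pvalb stood at 57.7 in Rheb cKO and 111.0 in Control, and Reln at 17.1 in Rheb cKO and 8.46 in Control, while the Gad1, Calb1 and Lamp5 points lie almost on each other.

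Genes of GABA synthesis and packaging were not called in either direction. Gad1 (chromosome 2, 70553072 to 70602014, plus strand, mm10, with this and later gene positions from GENCODE M21) was at 64.6 FPKM in Rheb cKO and 64.4 FPKM in Control in the authors' deposited table. Its log2 fold change was 0.003 (q = 0.994, Cuffdiff, the authors' deposited table), with a 95% interval of -0.25 to 0.25 back-calculated from the authors' p-value by taking the fold as normal on the log2 scale. An interval built from the authors' test score in place of the p-value is wider, -0.43 to 0.44 for Gad1. The same holds for the other genes below that have an interval from the p-value. Gad2 (chromosome 2, 22622205 to 22693874, plus strand) was at 14.4 FPKM in Rheb cKO and 12.5 FPKM in Control in the authors' deposited table. The log2 fold change of Gad2 was 0.21 (95% interval -0.03 to 0.45, q = 0.337, Cuffdiff, the authors' deposited table). Neither GAD gene passed the test, and both intervals include 0.

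Slc32a1 (chromosome 2, 158610767 to 158615748, plus strand) had the lowest fold of these genes. It was at 52.8 FPKM in Rheb cKO and 63.4 FPKM in Control in the authors' deposited table. The fold of Slc32a1 on the log2 scale was -0.26 (95% interval -0.51 to -0.01, unadjusted p = 0.0378, q = 0.199, Cuffdiff, the authors' deposited table), which did not pass after adjustment. The interval from the score of Slc32a1 was -0.70 to 0.17 and includes 0. Within each group Gad1 stood at 1.22 times the FPKM of Slc32a1 in Rheb cKO and 1.02 times in Control. Gad2 stood at 0.273 times the FPKM of Slc32a1 in Rheb cKO and 0.197 times in Control, and these differences between genes were not tested. Together the 3 genes summed to 131.8 FPKM in Rheb cKO and 140.3 FPKM in Control. In 697 bases the exons of Slc32a1 overlap those of Gm14205, an antisense gene on the opposite strand, and the labels do not state whether the authors' counting used strand.

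Lhx6 (chromosome 2, 36081953 to 36105408, minus strand), the transcription factor of interneurons from the medial ganglionic eminence, rose. It was at 11.0 FPKM in Rheb cKO and 8.10 FPKM in Control in the authors' deposited table, 1.36 times the Control level. For Lhx6 the log2 fold change was 0.45 (95% interval 0.16 to 0.74, q = 0.0348, Cuffdiff, the authors' deposited table), and 9.25% of genes with a finite fold had a higher one. The interval of Lhx6 from the score was -0.07 to 0.96, which includes 0. Lhx6 was not called at a q under 0.01, and centred on the pan-neuronal list its log2 fold change was 0.28. In 104 bases the exons of Lhx6 overlap those of Gm27953, a gene of type misc_RNA on the same strand, where strand cannot separate the reads.

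Pvalb (chromosome 15, 78191114 to 78206400, minus strand), which encodes the calcium buffer parvalbumin of fast-spiking basket and chandelier cells, fell. It was at 57.7 FPKM in Rheb cKO and 111.0 FPKM in Control in the authors' deposited table, which left 52.0% of the Control level. On the log2 scale the fold of Pvalb was -0.94 (q = 0.00161, Cuffdiff, the authors' deposited table), and 302 genes with a finite fold had a lower one. Its p-value was the smallest the authors' table gives, 5e-05, shared by 410 genes, so no interval could be calculated from it. From the score the 95% interval of Pvalb was -1.39 to -0.50. In bulk precipitates fewer Pvalb cells and less Pvalb mRNA per cell cannot be told apart, and the same holds for every gene below.

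Lhx6 and Pvalb, which the same cells are known to express, were called in opposite directions, and their ratio differed between the groups. Pvalb stood at 5.23 times the FPKM of Lhx6 in Rheb cKO and 13.7 times in Control. Against Gad1, Pvalb stood at 0.894 times in Rheb cKO and 1.72 times in Control, so it ranked below Gad1 in Rheb cKO and above Gad1 in Control. The change of a ratio between genes was not tested. Pvalb accounts for a difference of -53.3 FPKM between the groups; without it the other 9 genes summed to 373.2 FPKM in Rheb cKO and 365.0 FPKM in Control.

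Reln (chromosome 5, 21884454 to 22344702, minus strand) encodes reelin, a secreted glycoprotein that guides cell positioning in development and is made in the juvenile cortex by Lamp5 and some Sst interneurons. Its level was 17.1 FPKM in Rheb cKO and 8.46 FPKM in Control in the authors' deposited table, 2.02 times the Control level. Its log2 fold change was 1.01 (q = 0.00161, Cuffdiff, the authors' deposited table), the highest of the 10 genes, and 207 genes with a finite fold had a higher one. From the score the 95% interval of Reln was wide, 0.18 to 1.85. Reln was above Gad2 in level in Rheb cKO and below Gad2 in Control. Its transcript is long, 11699 bases in the longest annotated form, and folds in the table tended to increase with length; with the trend on transcript length and GC removed its log2 fold change was 0.94. Exons of Reln overlap those of the antisense gene Gm10475 over 246 bases.

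Htr3a (chromosome 9, 48899213 to 48911099, minus strand), a subunit of the serotonin-gated ion channel and a broad marker of interneurons from the caudal ganglionic eminence, rose as well. It was at 3.38 FPKM in Rheb cKO and 1.78 FPKM in Control in the authors' deposited table, the lowest of the 10 genes in both groups. Its log2 fold change was 0.92 (q = 0.00161, Cuffdiff, the authors' deposited table), or 0.65 with 1 added to each FPKM. From the score the 95% interval of Htr3a was wide, 0.15 to 1.70. The level of Htr3a was low: 29.2% of tested genes were lower in Rheb cKO and 18.3% in Control. Of the 10 genes it was the one whose fold moved by more than its error when 1 was added to each FPKM.

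Promoter windows are shown for the called genes that have an entry, since they moved in different directions; Htr3a has none, and 7 of the 10 genes matched by symbol. RefSeq lists 3 start sites for Lhx6, 2 for Pvalb and 1 for Reln, and where there are several the most upstream is shown, which borders the annotated gene start. Each window is the 250 bases before that start (build GRCm38.p6, the sequence of mm10), written on the strand of the gene, with any motif match in capitals: chr15:78206401-78206650 for Pvalb, chr5:22344706-22344955 for Reln and chr2:36105409-36105658 for Lhx6, all on the minus strand.
Pvalb: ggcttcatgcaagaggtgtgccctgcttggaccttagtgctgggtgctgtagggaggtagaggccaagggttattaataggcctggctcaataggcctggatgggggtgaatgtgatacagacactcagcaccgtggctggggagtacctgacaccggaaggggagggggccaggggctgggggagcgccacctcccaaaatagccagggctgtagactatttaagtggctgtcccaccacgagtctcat
Reln: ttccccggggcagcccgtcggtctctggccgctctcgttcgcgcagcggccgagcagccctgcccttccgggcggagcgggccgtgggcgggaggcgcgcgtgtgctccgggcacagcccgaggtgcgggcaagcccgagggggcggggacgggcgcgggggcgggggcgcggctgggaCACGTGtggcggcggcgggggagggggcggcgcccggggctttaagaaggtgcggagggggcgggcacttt
Lhx6: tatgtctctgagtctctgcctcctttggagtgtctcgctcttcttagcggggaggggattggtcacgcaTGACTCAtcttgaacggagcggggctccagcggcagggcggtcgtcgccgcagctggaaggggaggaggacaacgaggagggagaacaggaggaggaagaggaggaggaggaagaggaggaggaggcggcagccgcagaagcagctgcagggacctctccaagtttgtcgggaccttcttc

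The windows were searched on both strands for an E-box (CACGTG), an AP-1 site (TGACTCA), a homeodomain core (TAATTA) and a TATA box (TATAAA), none of which overlaps another in these sequences. Reln held an E-box, a motif found in 6.02% of all 32851 windows of that length, and its window was 80.0% G and C, against a median of 52.4%. The Lhx6 window shown held an AP-1 site, found in 4.46% of windows, while the other 2 windows of Lhx6 held none of the 4 motifs, and neither did either window of Pvalb. The homeodomain core, found in 4.84% of windows, was in none of the 3 windows shown, and neither was the TATA box, found in 12.4%. These matches describe letters and are not binding data.

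The other calcium-binding proteins and Lamp5 were not called. Calb1 (chromosome 4, 15881264 to 15908064, plus strand), calbindin, was at 19.2 FPKM in Rheb cKO and 19.6 FPKM in Control in the authors' deposited table (log2 fold change -0.03, 95% interval -0.27 to 0.21, q = 0.951, Cuffdiff). Calb2 (chromosome 8, 110137502 to 110168210, minus strand), calretinin of many Vip cells, was at 39.9 FPKM in Rheb cKO and 35.3 FPKM in Control in the authors' deposited table (log2 fold change 0.18, 95% interval -0.09 to 0.44, q = 0.505, Cuffdiff). Among the 3 calcium buffers, then, Pvalb was called and Calb1 and Calb2 were not, a difference between genes that was not tested.

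Lamp5 (chromosome 2, 136052239 to 136069917, plus strand) encodes a membrane protein of vesicles and marks neurogliaform cells, and it is also made by upper-layer excitatory neurons. It was the most abundant of the 10 genes in both groups, at 150.7 FPKM in Rheb cKO and 151.5 FPKM in Control in the authors' deposited table. Its log2 fold change was -0.01 (95% interval -0.24 to 0.23, q = 0.986, Cuffdiff, the authors' deposited table). By contrast Reln, which the same class also expresses, rose by 1.01 on the log2 scale.

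**Figure D2:**
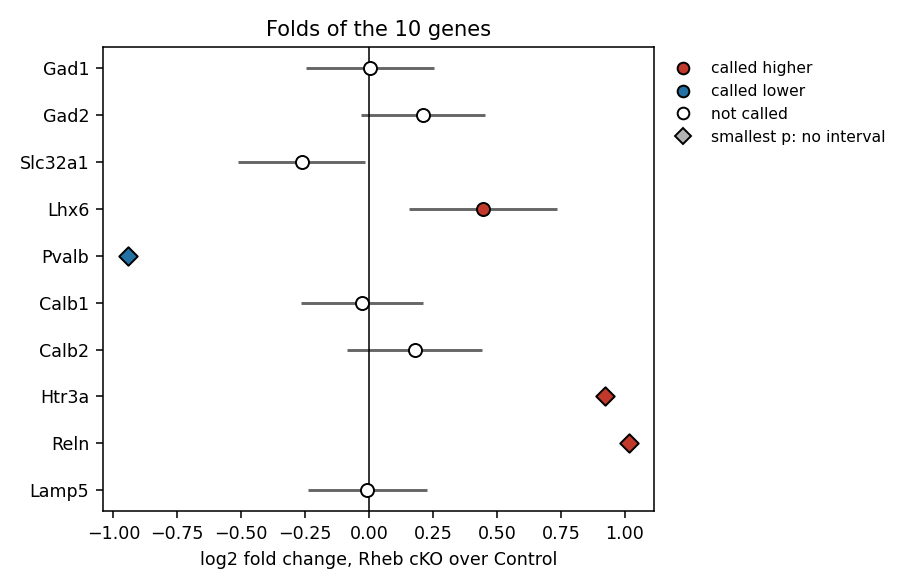
Log2 fold change of each gene, Rheb cKO over Control, with the 95% interval back-calculated from the authors' p-value as a line. Diamonds are genes at the smallest p-value, which have no such interval. Reln, Htr3a and Lhx6 lie right of 0 and Pvalb left of it, and the intervals of Gad1, Gad2, Calb1, Calb2 and Lamp5 cross 0.

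**Figure D3:**
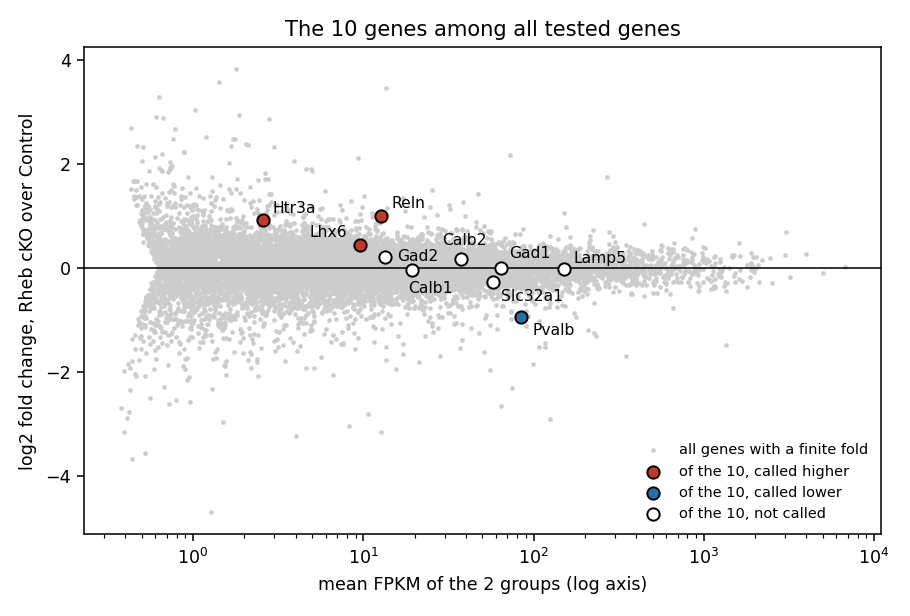
Log2 fold change against the mean FPKM of the groups (log axis) for all 13175 genes with a finite fold in grey and the 10 genes on top. Pvalb, at a mean of 84.3 FPKM, and Reln, at 12.8 FPKM, lie at the edges of the grey cloud, and Gad1 and Lamp5 lie near a fold of 0, at levels above most genes.

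The levels of the 10 genes span a wide range. In Rheb cKO the order from high to low was Lamp5, Gad1, Pvalb, Slc32a1, Calb2, Calb1, Reln, Gad2, Lhx6 and Htr3a. In Control it was Lamp5, Pvalb, Gad1, Slc32a1, Calb2, Calb1, Gad2, Reln, Lhx6 and Htr3a. Without library values it cannot be said which neighbours in either order differ beyond their spread, and Gad1 and Slc32a1 were 11.8 FPKM apart in Rheb cKO and 1.07 FPKM apart in Control.

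Transcription factors that specify interneurons were mostly above 0. Of 17 measured genes on this list, 2 rose and 0 fell by Cuffdiff, beside 8.72% of all tested genes called. The 17 include Adarb2, named outside the rule, which encodes an RNA-binding protein and not a transcription factor. Its log2 fold change was 0.32 (q = 0.332, Cuffdiff, the authors' deposited table). A fold above 0 was found for 14 of the 17, but also for 13 of 14 excitatory neuron markers, and 11 of the 17 stood above the pan-neuronal median. An unadjusted p under 0.05 was passed by 9, 8 of them with a fold above 0, beside 21.2% of all genes. At a q under 0.01, 0 of the 17 were called. Their median log2 fold change was 0.36, beside 0.03 over all genes with a finite fold, and 0.20 when centred on the pan-neuronal markers. Besides Lhx6, the one that rose was Maf, a factor of interneurons from the medial ganglionic eminence. Maf was at 3.23 FPKM in Rheb cKO and 2.15 FPKM in Control (log2 fold change 0.59, q = 0.0367, Cuffdiff, the authors' deposited table). Microglia also express Maf; microglia markers summed to 40.1 FPKM in Rheb cKO and 32.1 FPKM in Control over 10 genes, with 0 called by Cuffdiff and 3 at an unadjusted p under 0.05, and their part in this change was not tested.

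Among genes of the Pvalb class, Pvalb was the single one called of 12, near the 8.72% of all tested genes called. Of the other 11, 0 were called by Cuffdiff, and the median log2 fold change of these 11 was -0.11. Kcnc1, a potassium channel of fast spiking, had a log2 fold change of -0.40 (q = 0.0671, Cuffdiff, the authors' deposited table). Syt2, the calcium sensor of their terminals, was at -0.44 (q = 0.301, Cuffdiff, the authors' deposited table). Btbd11, a marker of the same cells, had the highest fold of the class, 0.34 (q = 0.188, Cuffdiff, the authors' deposited table), so the signs within the class differed. These 3 genes were chosen after their values were seen. Of all 12 genes, 5 had a fold above 0 and 7 below. An unadjusted p under 0.05 was reached by 1 with a higher and 3 with a lower level, beside 21.2% of all genes in either direction.

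In the Sst class 1 of 8 measured genes rose and 2 fell, beside 4.14% higher and 4.58% lower over all tested genes. Another 4 listed genes were not analysed, and at a q under 0.01 only Grin3a was called. Sst itself, the peptide somatostatin, was at 1000.4 FPKM in Rheb cKO and 1298 FPKM in Control (log2 fold change -0.38, q = 0.0213, Cuffdiff, the authors' deposited table). Npy, a peptide of Sst and Lamp5 cells, was at 268.5 FPKM in Rheb cKO and 362.7 FPKM in Control (-0.43, q = 0.0104, Cuffdiff, the authors' deposited table). Grin3a, an NMDA receptor subunit enriched in Sst cells, went the other way, at 6.12 FPKM in Rheb cKO and 4.37 FPKM in Control (0.49, q = 0.00699, Cuffdiff, the authors' deposited table). The class median was -0.02.

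In the Vip class 2 of 11 rose, Htr3a and Tac2, and 0 fell by Cuffdiff, beside 4.14% higher and 4.58% lower over all tested genes. An unadjusted p under 0.05 was reached by 3 with a higher and 5 with a lower level, beside 21.2% of all genes in either direction. Tac2, which encodes neurokinin B, was at 36.2 FPKM in Rheb cKO and 17.8 FPKM in Control (log2 fold change 1.02, q = 0.00161, Cuffdiff, the authors' deposited table). Vip itself was at 19.4 FPKM in Rheb cKO and 17.6 FPKM in Control (0.14, q = 0.625, Cuffdiff, the authors' deposited table) and is named outside the rule. The class median was 0.08, or -0.25 over the 9 genes left without Htr3a and Calb2.

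In the Lamp5 class 4 of 9 rose, Reln, Sv2c, Lhx6 and Id2 (named after its value was seen), and 1 fell, Npy, with a median of 0.33. Over all tested genes 4.14% were called higher and 4.58% lower. Lhx6 is also counted among the transcription factors and Npy in the Sst class. At a q under 0.01, 2 of the 9 were called. Sv2c, a synaptic vesicle protein, was at 3.75 FPKM in Rheb cKO and 2.52 FPKM in Control (log2 fold change 0.58, q = 0.00161, Cuffdiff, the authors' deposited table). Without the members Reln, Lhx6 and Lamp5 the class had 2 of 6 higher, 1 lower and a median of 0.14. Reln is also the defining gene of Cajal-Retzius cells, which settle in layer 1 early in life. Of 8 markers of those cells only Reln and Calb2 were measured, and the other 6 were not analysed here, so the part of Cajal-Retzius cells in the rise of Reln was not tested.

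**Figure D4:**
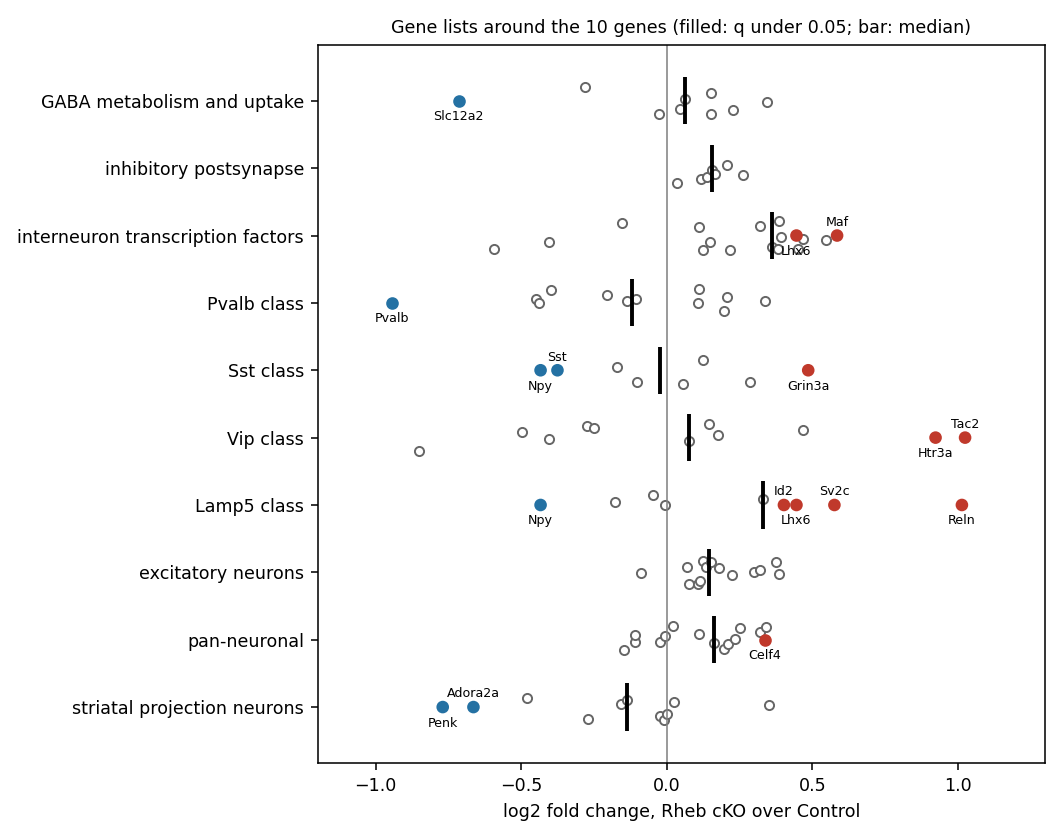
Log2 fold change, Rheb cKO over Control, of every measured gene in 10 lists; filled points have a q under 0.05 and are named, open points do not, and the bar is the median of the list. Interneuron transcription factors centre at 0.36 and the Pvalb class at -0.12, and each interneuron class holds called and uncalled genes.

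Genes that take up, break down or respond to GABA had 1 of 9 and 0 of 7 called by Cuffdiff in the lists below, beside 8.72% of all tested genes. Of the 9 genes of GABA metabolism, uptake and chloride balance, 1 fell, Slc12a2, the chloride importer, at 2.94 FPKM in Rheb cKO and 4.83 FPKM in Control (log2 fold change -0.72, q = 0.00161, Cuffdiff, the authors' deposited table). Oligodendrocyte lineage cells and astrocytes also express Slc12a2, and the oligodendrocyte markers given above had a median log2 fold change of -1.59 and the astrocyte markers one of -0.06; the part of these cells in the fall of Slc12a2 was not tested. Of the 7 scaffold and adhesion genes of the inhibitory postsynapse, 0 were called by Cuffdiff and 0 passed an unadjusted p under 0.05, while all 7 had a fold above 0 (median 0.16), a sign that does not hold relative to the pan-neuronal markers, where the median is -0.0043. The most abundant of them, Nlgn2, an adhesion protein of GABA synapses, was at 129.7 FPKM in Rheb cKO and 115.5 FPKM in Control (0.17, q = 0.454, Cuffdiff, the authors' deposited table).

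Markers of other cells that a cortical precipitate can hold moved as follows, beside 8.72% of all tested genes called and 21.2% at an unadjusted p under 0.05. Excitatory neuron markers had 0 of 14 called by Cuffdiff, 4 at an unadjusted p under 0.05 and a median log2 fold change of 0.14. Pan-neuronal markers had a median of 0.16 with 1 of 15, Celf4, higher (0.34, q = 0.0448, Cuffdiff, the authors' deposited table). On a scale centred on that median Gad1 was at -0.16, Calb1 at -0.19 and Lamp5 at -0.17, and the called genes kept their signs. Striatal projection neurons also use Gad1, Gad2, Slc32a1 and Calb1, and their markers summed to 1284 FPKM in Rheb cKO and 1706 FPKM in Control. Of those 11 markers 2 fell, Penk (-0.77) and Adora2a (-0.66), and 0 rose by Cuffdiff in the authors' deposited table. The other 9 were not called, among them Drd1 (-0.02) and Drd2 (-0.01), both named outside the rule. Of the 11, 3 had a fold above 0 and 8 below, with a median of -0.14. Penk alone was at 487.0 FPKM in Rheb cKO and 830.5 FPKM in Control, so the sums depend strongly on it. The part of striatal tissue in the levels of the 10 genes was not tested. Astrocyte markers had 3 of 12 higher and 2 lower, with a median of -0.06. Endothelial and mural markers had 4 of 7 lower, with a median of -0.61, and another 5 were not analysed. Those 4, Kcnj8, Vtn, Acta2 and Rgs5, are mural markers. Pdgfrb (-0.22, q = 0.548) and Cspg4 (0.16, q = 0.638), also mural markers and named outside the rule, were not called (Cuffdiff, the authors' deposited table). Cldn5, the only endothelial marker measured and named outside the rule, was not called (-0.27, q = 0.648, Cuffdiff, the authors' deposited table).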

How the data were processed

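RNA of HA-tagged ribosomes from cortex was sequenced from 3 Rheb cKO and 3 Control libraries, prepared with a strand-keeping kit for polyadenylated RNA (per the labels' protocols). Cuffdiff 2.2.1, TopHat2 2.1.0 and mm10 are listed, with no settings, per the submitters' processing notes. The authors deposited 1 pooled FPKM value per gene and group, a log2 fold change of Rheb cKO over Control without pseudocount, a signed test score, a p-value and a q-value, per the file headers. Replicates cannot be separated, so no test across libraries was run; calls are the authors' q-values under 0.05 over all 13192 genes. The shorter deposited table was not used.

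From these values the counts and medians per list, ratios between genes, and 95% intervals were computed. An interval is the fold plus and minus 1.96 times an error, the absolute fold divided by the normal quantile of the 2-sided p-value or, where so stated, by the size of the score. Among the 7 genes above the smallest p-value this error was 0.119 to 0.148.

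The 10 genes and the 15 lists were chosen with earlier results of these data known. Named are the 10 genes, Rheb, up to 4 called genes per list by absolute fold, or the 2 most abundant where none is called; exceptions are marked, and some named genes are given by count only. The lists cover GABA metabolism, interneuron transcription factors, the Pvalb, Sst, Vip and Lamp5 classes, Cajal-Retzius cells, the inhibitory postsynapse, excitatory, pan-neuronal and striatal neurons, oligodendrocytes, astrocytes, microglia and vessels; some share genes, and some genes are not reported here and were left out of the lists. With 2 group values no gene of like pattern could be sought.

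Positions, exons and transcript length and GC come from GENCODE M21 (same build), which matched 99.7% of gene IDs. Computation used scipy 1.17.1, pandas 2.3.3 and numpy 2.4.6 under Python 3.11.15, with figures by matplotlib 3.10.9; the adjustment and trend steps were tested on simulated data.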

Additional observations from a re-analysis of the deposited data

How the results depend on the processing

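Over 6 other scalings or pseudocounts, 52 of 60 recomputed folds of the 10 genes moved by less than the error from their p-value. The other 8 moved by more, and 0 of the called genes changed sign. Centring on all genes, the pan-neuronal list or the GABA genes subtracts the same constant from every gene, 0.032, 0.161 or -0.017. The first and last are smaller than every error, so those folds could not count as moved. For Pvalb, Reln and Htr3a the error rests on the smallest p-value and is not exact. Pvalb ran from -1.10 to -0.83, Reln from 0.85 to 1.03, Htr3a from 0.65 to 0.99 and Lhx6 from 0.28 to 0.49. The pan-neuronal list had a median of 0.16, and centred on it the median of the 10 genes was -0.070 in place of 0.09. At an unadjusted p under 0.05 there were 2 genes lower, Slc32a1 joining Pvalb. At a q under 0.01 the called genes numbered 0 among interneuron transcription factors, 1 in the Sst class, 2 in the Lamp5 class and 0 among pan-neuronal markers, against 2, 3, 5 and 1. No paired analysis was possible because the deposited columns hold 1 pooled value per group and carry no replicate. For the same reason leaving out each library was not run. Depth per library is unknown, so precision cannot be set by reads.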

Other observations

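The authors' score and p-value give different errors for the same gene. Over 12769 genes the absolute fold divided by the score was 1.76 times (median; quartiles 1.74 and 1.83) the error obtained from the p-value. For Lhx6 the score was 1.70 with p = 0.00255 (Cuffdiff, the authors' deposited table), and for Slc32a1 the score was -1.19 with p = 0.0378 (Cuffdiff, the authors' deposited table). Intervals built from the score include 0 for both genes, while those from the p-value do not.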
